A study of Mus musculus with 2 samples.

Results

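Cluster C06 is the larger of the 2 clusters of CD8 T cells in a single-cell RNA survey of mouse tumors, and its members were taken as every cell that the authors' deposited annotation places in cluster C06 of the class CD8T. It holds 828 of 11456 cells, 387 from tumors of wild-type hosts (WT) and 441 from tumors of hosts with the HSF1 mutation S303/7A, here called mutant, which puts alanine in place of 2 serines of heat shock factor 1. HSF1 is a transcription factor best known for inducing chaperones when proteins misfold. The tumors were engrafted, and the series' text speaks of 4 mice being pooled, so there is 1 library per genotype, animals cannot be told apart, and no difference below has a replicate check, a test or a p-value. The labels place the mutation in the mice and name no single cell type for it. The tumor line, the age and sex of the mice and the time after engraftment are not given in the labels. After enzymatic digestion, live leukocytes (CD45-positive) and other cells were sorted apart and recombined at 5 to 1 for droplet capture with 3′ end counting.

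CD8 T cells recognise peptides on MHC class I molecules through the T cell receptor, with the CD8 protein as co-receptor, and kill by releasing perforin and granzymes and by secreting cytokines such as interferon gamma. In tumors, repeated stimulation leaves many of them with inhibitory receptors such as PD-1 (Pdcd1) and LAG-3 and with tissue-retention receptors such as CXCR6. The other CD8 T cell cluster, C11, is made of dividing cells. Natural killer (NK) cells share the killing machinery but have no rearranged receptor, and regulatory T cells (Treg) share the receptor but restrain immune responses.

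A unique molecular identifier (UMI) marks 1 captured RNA molecule. Levels are given as CP10K, the mean over cells of the UMIs of a gene per 10000 UMIs of the cell, and differences as the log2 ratio of 2 such means after adding 0.1 to each. Because 3′ end counting gives each molecule 1 tag, levels are compared between groups for the same gene and not between genes. Intervals are 95% intervals for counting error only. The C06 cells held 1885741 UMIs in the WT library and 3265327 in the mutant library, with a median of 4577 and 7035 UMIs per cell, 1.54 times as many in the mutant library. Where shares of cells with a UMI are compared between libraries, each cell was therefore also thinned to 2000 UMIs, a depth that 9 WT and 5 mutant cells did not reach. A share is before thinning unless it is said to be of thinned cells. The libraries shared 48 cell barcodes, of which 0 joined a C06 cell of one library to a C06 cell of the other.

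RNA of other cell types was present in both libraries and in unequal amounts. Apoe, an apolipoprotein gene that macrophages express strongly, was at 38.8 CP10K in WT macrophages and 123.0 in mutant macrophages, which make up much of the cell mix. In C06 it was at 1.52 and 5.46 CP10K, in NK cells at 1.08 and 5.20 and in Treg at 2.96 and 5.63. The 10 macrophage markers summed to 8.20 CP10K in WT and 17.6 in mutant C06 cells, against 7.26 and 15.9 in NK cells and 218.2 and 359.8 in the macrophages themselves. 9 of the 9 measured macrophage markers were higher by a log2 ratio of 0.5 or more in mutant C06 cells, beside 3.77% of all 6999 genes measured that way, with a median of 0.75, against 0.76 in C11, 0.77 in NK cells and 0.28 in Treg, where 3 of 10 measured markers were below 0. The summed level went the other way for monocyte markers, at 44.6 and 26.2 CP10K in C06 and 50.5 and 12.5 in macrophages. Plac8, which T cells also express, held 61.8% and 69.0% of that sum in C06 and Ly6c2 36.2% and 30.3%, while in mutant macrophages Ccr2 held 20.5% of it. Dendritic cell markers summed to 5.46 and 10.4 CP10K, B cell markers to 1.11 and 0.799, and tumor and stroma markers to 1.06 and 0.478. Gamma delta T cell markers were at 1.83 and 0.222, led by Tcrg-C2. NK markers summed to 1.40 and 0.641 CP10K in C06 against 32.3 and 30.0 in NK cells, and Treg markers to 3.84 and 3.89 against 55.3 and 44.5 in Treg. Most of the Treg sum in C06 was Ikzf2 and Tnfrsf4, whose levels are given further on. Whether the gamma delta, NK and Treg sums were RNA of C06 cells themselves or of other cells was not tested. The part of RNA from other cells, and of depth, in the differences given below was not tested either. The defining B cell marker Ms4a1 was at 0 UMIs in C06 of both libraries, Clec9a of dendritic cells and Fcnb of monocytes were at 0 too, Ncr1 of NK cells had 1 and 2 UMIs and Foxp3 of Treg 8 and 19.

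The CD8 T cell label was set beside marker genes, as a description, since the clusters were drawn from these same genes. At least 1 UMI of the CD8 chains Cd8a or Cd8b1 was found in 376 of 387 WT cells (97.2%) and 435 of 441 mutant cells (98.6%), and in 96.3% and 95.2% of thinned cells, against 11.5% and 13.9% of thinned macrophages. Cd4 was found in 11 and 13 cells. Cells with Cd4 and no CD8 chain numbered 7 and 4. Cd8a, which lies at 71373427 to 71379173 of chromosome 6 (GRCm38), averaged 9.99 CP10K in WT and 9.20 in mutant C06 cells, 7.74 and 6.98 in C11, and 0.162 and 0.273 in NK cells. Cd8b1, its partner chain, was at 13.1 and 10.3 CP10K in C06 and at 0.153 and 0.199 in NK cells. Cxcr6, a chemokine receptor of T cells that stay in tissue, was at 9.90 and 8.72 CP10K in C06, 4.93 and 4.93 in C11, 0.766 and 0.384 in NK cells and 2.30 and 1.34 in Treg. Pdcd1 was at 4.72 and 5.44 CP10K in C06, 3.65 and 4.09 in C11 and at most 1.40 in NK cells and Treg. Klrc1, which encodes the inhibitory lectin NKG2A, was at 4.55 and 4.10 CP10K in C06, 2.66 and 1.77 in NK cells and 0.640 and 0.466 in Treg. Ifng was at 8.29 and 1.996 CP10K in C06, a level that in the WT library rests on 2 cells described further on. All 6 genes were higher in C06 than in C11, NK and Treg in both libraries, the smallest margins over C11 being log2 ratios of 0.08 for Ifng in the mutant library and 0.11 for Klrc1 in WT. These 6 were set as the markers of C06, so their higher levels there are no check of the label. Klrc1 shared 68.7% of the 31-base words in the last 500 bases of its transcript with Klrc2, so counts may be split between them.

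**Figure D1:**
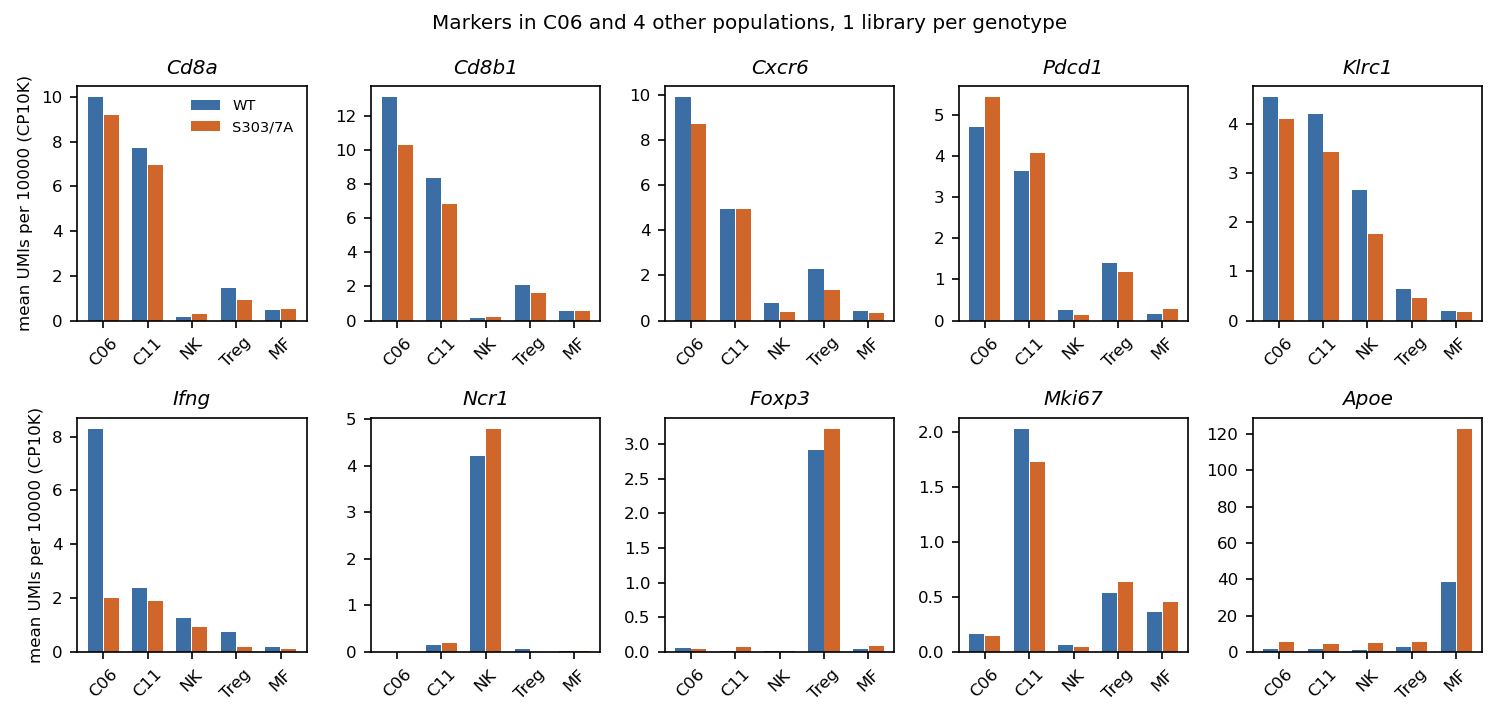
Mean level (CP10K, linear axis from 0) of 10 genes in C06, C11, NK, Treg and macrophage (MF) cells, 1 bar per library. The CD8 chains, Pdcd1 and Cxcr6 are highest in C06, with Cd8a at 9.99 and 9.20 CP10K there and 0.162 and 0.273 in NK cells, while Apoe is highest in macrophages.

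Genes of cell division were lower in C06 than in C11 and higher than in NK cells. The proliferation genes summed to 5.43 CP10K in WT and 3.64 in mutant C06 cells, against 61.8 and 52.4 in C11, 11.1 and 9.97 in Treg and 2.78 and 2.91 in NK cells. 21 of 387 WT cells (5.43%) and 20 of 441 mutant cells (4.54%) carried 10 or more UMIs of these genes, and 202 and 247 cells carried 2 or more. In thinned cells, 2 or more UMIs were found in 25.1% and 15.4% of C06, 99.0% and 94.9% of C11 and 11.04% and 11.1% of NK cells.

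C06 made up a larger share of the CD8 T cells in the mutant library. It held 387 of 693 CD8 T cells in WT (55.8%, exact Clopper-Pearson interval 52.1 to 59.6%) and 441 of 617 in the mutant (71.5%, 67.7 to 75.01%), a ratio of 1.28 (1.18 to 1.39). Of all CD45-positive cells it was 9.305% (8.44 to 10.2%) and 11.8% (10.8 to 12.9%), a ratio of 1.27 (1.12 to 1.45). With 1 pooled library per genotype, genotype and library cannot be told apart.

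Receptor transcripts were read for their V segments, the part of the chain that differs between clones. The deposited data hold 16 alpha chain (Trav) and 6 beta chain (Trbv) segments. A share of cells given here is therefore not the share of a segment among all receptors. An alpha chain V segment was counted in 39 of 387 WT cells (10.1%) and 87 of 441 mutant cells (19.7%), and in thinned cells in 5.03% and 10.5%, against 0.119% and 0.298% of thinned macrophages. One of them, Trav4-4-dv10, was found in 55 of 441 mutant C06 cells (12.5%, 9.54 to 15.9%) with 149 UMIs, and in 33 of 436 thinned ones (7.57%, 5.27 to 10.5%). It was found in 0 of 387 WT C06 cells, where 3 counts of the total would be 0.775% of cells with a UMI. In C11 it was found in 2 of 306 WT and 5 of 176 mutant cells, and in macrophages in 2 of 1983 WT cells and 25 of 2082 mutant cells (1.20%), the latter with a median depth of 14044 UMIs. Of thinned mutant macrophages 2 of 2011 held it. Trav13-4-dv7 was the leading segment of the WT library, in 23 of 387 C06 cells (5.94%, 3.80 to 8.78%) and 21 of 306 C11 cells (6.86%), against 10 of 1983 macrophages (0.504%). In thinned cells it was in 3.44% of C06 and 1.97% of C11. It was found in 0 of 441 mutant C06 cells, where 3 counts would be 0.680%, and in 0 of the mutant C11, NK, Treg and macrophage cells. Trav13-1 was in 15 of 441 mutant and 0 of 387 WT C06 cells, and in 6 of 436 and 0 of 378 thinned ones. These segments were chosen after their values were seen. Beta chain segments, of which fewer are in the data, were counted in fewer cells. Trbv12-2 was in 8 WT and 12 mutant cells, Trbv16 in 0 and 6, Trbv31 in 0 and 2, and Trbv13-2 and Trbv15 each in 1 and 0. A shared V segment does not show a shared clone, and joined receptor sequences were not analysed here.

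The leading segment of each library is shown because each was found in C06 of 1 library and in 0 C06 cells of the other. Both lie on the plus strand of chromosome 14 in GRCm38, Trav4-4-dv10 at 53683647 to 53684177 and Trav13-4-dv7 at 53757356 to 53757921, in the T cell receptor alpha locus, and both are annotated as V segments with 331 coding bases. The last 300 bases of each transcript, which run to the 3′ end of the segment, are given 5′ to 3′ from GENCODE M21. Capitals mark bases within 31-base words that occur in transcripts of no other annotated gene, 168 bases in the first and 61 in the second. The lower case parts are shared with near copies such as Trav4d-4 or Trav13d-4, so the counted segment may be 1 of those copies.
Trav4-4-dv10: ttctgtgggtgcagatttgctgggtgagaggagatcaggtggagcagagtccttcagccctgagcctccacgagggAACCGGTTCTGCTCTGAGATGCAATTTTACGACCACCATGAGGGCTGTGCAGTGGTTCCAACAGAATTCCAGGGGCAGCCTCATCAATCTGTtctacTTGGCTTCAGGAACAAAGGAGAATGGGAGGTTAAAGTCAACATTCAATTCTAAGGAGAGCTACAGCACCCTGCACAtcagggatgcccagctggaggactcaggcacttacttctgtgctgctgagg
Trav13-4-dv7: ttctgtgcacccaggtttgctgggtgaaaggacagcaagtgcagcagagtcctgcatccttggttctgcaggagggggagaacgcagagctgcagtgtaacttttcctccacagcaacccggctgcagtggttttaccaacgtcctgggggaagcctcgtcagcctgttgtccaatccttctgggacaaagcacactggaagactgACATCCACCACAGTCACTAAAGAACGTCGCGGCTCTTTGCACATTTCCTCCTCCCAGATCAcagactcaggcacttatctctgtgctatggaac

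**Figure D2:**
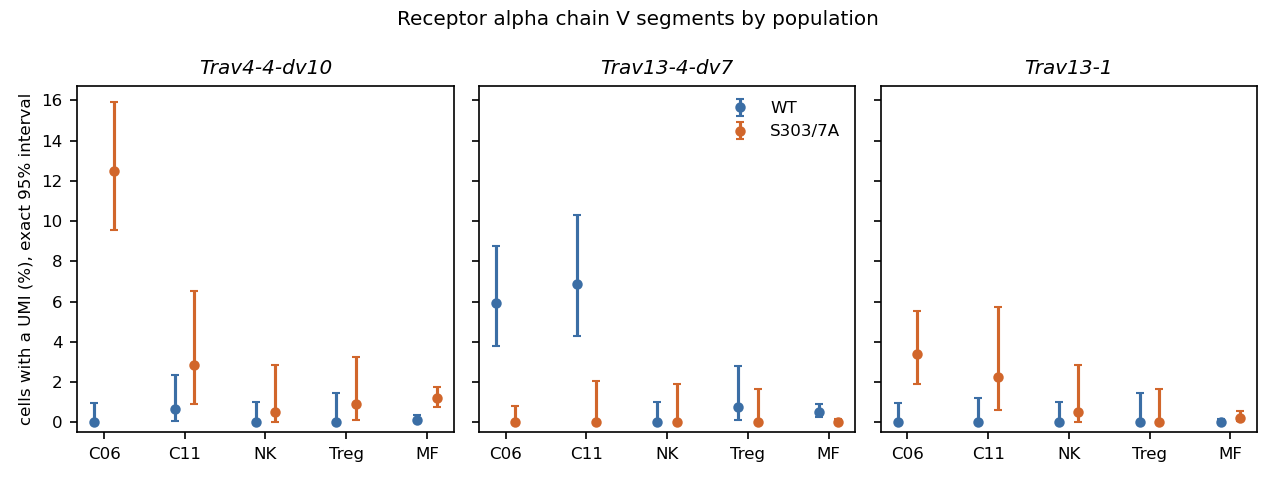
Share of cells (percent, before thinning) with a UMI of 3 alpha chain V segments in C06, C11, NK, Treg and macrophage (MF) cells of each library, with exact 95% intervals for counting error. Trav4-4-dv10 reaches 12.5% of mutant C06 cells and 0 of 387 WT C06 cells, with 2 of 306 WT C11 cells above 0, and Trav13-4-dv7 reaches 5.94% of WT C06 cells and 0 of 441 mutant cells.

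The 55 cells with Trav4-4-dv10 differed from the other 386 mutant C06 cells in other genes too, at median depths of 6073 and 7140 UMIs. Hopx, an atypical homeodomain protein of effector lymphocytes, was found in 78.2% of them and 22.8% of the rest, at 2.14 and 0.545 CP10K. The interferon-inducible membrane protein genes Ifitm1, at 5.36 and 1.19 CP10K, and Ifitm3, at 6.73 and 2.54, were higher as well. Trac, the alpha chain constant region, was at 17.2 and 8.56 CP10K. The cells were chosen by a UMI of an alpha chain transcript, which also carries Trac, so this value is not independent of the selection. In the 23 WT cells with Trav13-4-dv7, chosen the same way, Trac was at 13.0 CP10K against 9.29 in the other WT cells. Lower in these cells were the surface protein gene Cd7, at 0.339 and 2.32 CP10K, the transporter gene Slc16a11, at 0.244 and 1.41, and Trbc1, a beta chain constant region, at 4.54 and 15.8, although a Trbc1 UMI was found in 89.1% of them and 79.0% of the rest. The granzyme genes Gzmd and Gzme had 0 UMIs in the 55 cells, against 0.740 and 0.750 CP10K in the rest. They were found in only 8.81% and 11.7% of the rest. The 10 mutant C06 cells with the most Gzmd UMIs held 73.1% of them, and the 10 with the most Gzme UMIs held 62.1% of those. Cd8a (9.51 and 9.16 CP10K), Pdcd1 (5.65 and 5.42), Cxcr6 (9.57 and 8.60) and Gzmb (6.60 and 6.29) were close to the rest. The 23 WT cells with Trav13-4-dv7 had 0 UMIs of Il7r, against 1.04 CP10K in the other 364 WT cells, and Ifitm1 at 0.169 against 4.72 CP10K. Il7r was found in only 22.5% of the other 364 cells, and Ifitm1 in 4.35% of the 23 and 21.4% of the others. The 10 WT C06 cells with the most Ifitm1 UMIs held 45.7% of them. Whether these differences of small groups exceed counting error was not tested.

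The constant regions differed between the libraries as well. Trbc1 was found in 46.6% of thinned WT cells and 67.4% of thinned mutant cells (55.3% and 80.3% before thinning), against 6.54% and 12.03% of macrophages, at 10.8 and 14.4 CP10K. Among cells with 5 or more Trbc1 or Trbc2 UMIs, 190 of 373 WT cells (50.9%) and 121 of 439 mutant cells (27.6%) had under 10% of them on Trbc1, and in C11 the shares were 49.3% and 23.4%. These shares were taken before thinning only. A cell with few such UMIs is under 10% only when it has 0 of Trbc1. The part of depth and of free RNA in these shares was not tested. Tcrg-C2, a gamma chain constant region, was at 1.42 CP10K in WT and 0.146 in mutant C06 cells, and in thinned cells it was found in 19.3% and 1.38%, against 1.07% and 0.398% of macrophages. The delta chain gene Trdc was found in 1 and 3 C06 cells, against 110 and 22 cells with Tcrg-C2 before thinning. Trbc1 and Tcrg-C2 share 19.6% and 49.6% of the words of their 3′ ends with their paralogs, so their counts are uncertain to that extent.

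C06 was first set against the other lymphocytes, and since the clusters were drawn from these same genes, the differences are a description. A gene counted when its log2 ratio was 1 or more, in the same direction, in both libraries. Against C11, 23 of 6376 genes were higher in C06 (0.361%) and 292 were lower (4.58%). The higher ones were led by Slfn5, a Schlafen family gene, at 0.503 and 0.446 CP10K against 0.0511 and 0.0629 in C11, Ifit3 (1.53 and 1.53) and Ifit1 (1.98 and 1.26), which are antiviral genes induced by interferon, and the chemokine gene Ccl5 (2.04 and 1.36). Hopx, the costimulatory receptor gene Icos, the macrophage growth factor gene Csf1 and the signalling adaptor gene Hcst followed, with ratios from 1.05 to 1.72. All 20 genes of the proliferation list were among the lower ones. The furthest below included the histone gene Hist1h2ap (−5.55 and −5.25, with 93.4% of its 3′ words shared with other histone genes), the replication factor gene Pclaf (−4.15 and −4.37), the kinetochore gene Cenpf (−3.99 and −4.10) and the cyclin gene Ccna2 (−3.78 and −3.75). In cells thinned to 2000 UMIs, 13 genes were higher and 150 lower. The median depth of C11 was 9747 and 13510 UMIs per cell.

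Against NK cells, 122 of 4468 genes were higher in C06 (2.73%) and 99 were lower (2.22%). Cd8b1 led with log2 ratios of 5.70 and 5.12, then Cd8a, Pdcd1 (3.79 and 4.51) and Cxcr6 (3.53 and 4.19), followed by parts of the T cell receptor: Cd3g (3.28 and 3.34), Trac (3.28 and 3.63), Cd3e (3.41 and 3.16) and the thymocyte signalling gene Themis (3.32 and 3.15). Igfbp7, a secreted growth factor binding protein, and Nrn1, a membrane-anchored protein first known in neurons, were also among them, at 0.924 and 1.962 CP10K and 1.16 and 1.68 CP10K in C06. The lower ones were NK receptors and granule genes. The Ly49 receptor gene Klra7 was at −5.78 and −6.26, the activating receptor gene Ncr1 at −5.36 and −5.48, Klrb1c at −5.48 and −5.05 and the adaptor gene Tyrobp at −4.41 and −3.95. Gzma averaged 70.2 and 41.5 CP10K over NK cells against 4.33 and 0.386 over C06, and Gzmc 19.2 and 15.4 against 1.28 and 1.25.

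Against Treg, 79 of 4405 genes were higher in C06 (1.79%) and 236 were lower (5.36%). The lectin receptor genes Klre1 (3.45 and 4.53) and Klrd1 (3.00 and 3.84) and the receptor gene Cd160 (3.38 and 4.16) were highest, with Nrgn, which encodes the calmodulin-binding protein neurogranin (3.59 and 2.94). Lowest were Klrg1 (−4.73 and −4.90), the lineage factor Foxp3 (−4.24 and −4.49), the folate receptor family gene Izumo1r (−4.54 and −3.94) and the transcription factor gene Maf (−4.79 and −3.87). Ikzf2, Itgae, Il2ra, Icos and Tnfrsf4, known Treg genes, were lower by ratios from −3.01 to −4.17 in both libraries. Klrg1 had 8 and 12 UMIs in C06 and Itgae 9 and 7, which are markers of short-lived effector and of epithelial resident CD8 T cells.

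Genes higher in C06 than in all 3 populations were ranked by their weakest ratio. The gene with the highest weakest ratio was AA467197, at 0.83, and Cxcr6 followed at 0.81. Csf1, at 0.654 and 0.777 CP10K in C06 and 0.254 and 0.237 in C11, Nrp1, a semaphorin and growth factor receptor gene at 0.593 and 0.697, Crtam, an adhesion molecule of activated cytotoxic cells at 0.438 and 0.668, the cytokine receptor gene Il18r1 at 1.28 and 1.43 and the galectin gene Lgals3 at 6.07 and 5.92 were in this list of 15 as well.

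The genotypes were then compared within C06. Of 5463 genes found in at least 10% of C06 cells of 1 library, 195 were lower in the mutant by a log2 ratio of 0.5 or more (3.57%) and 191 were higher (3.5%), with a median of 0.00 over all of them. This filter used shares before thinning, so a gene could pass it only through the library where it was higher, or the deeper one. In cells thinned to 2000 UMIs, 2398 genes passed it, and 82 of the 195 and 59 of the 191 were called again. Among the 6999 genes at 0.1 CP10K or more in 1 library, which form the basis of the gene lists below, 317 were lower (4.53%) and 264 higher (3.77%), with a median of −0.02. Of these genes 52.6% were below 0, and each list count below is to be read beside these shares. Hsf1 itself was at 0.132 CP10K in WT (21 UMIs) and 0.127 in the mutant (38 UMIs), and an amino acid change would not show in these counts.

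**Figure D3:**
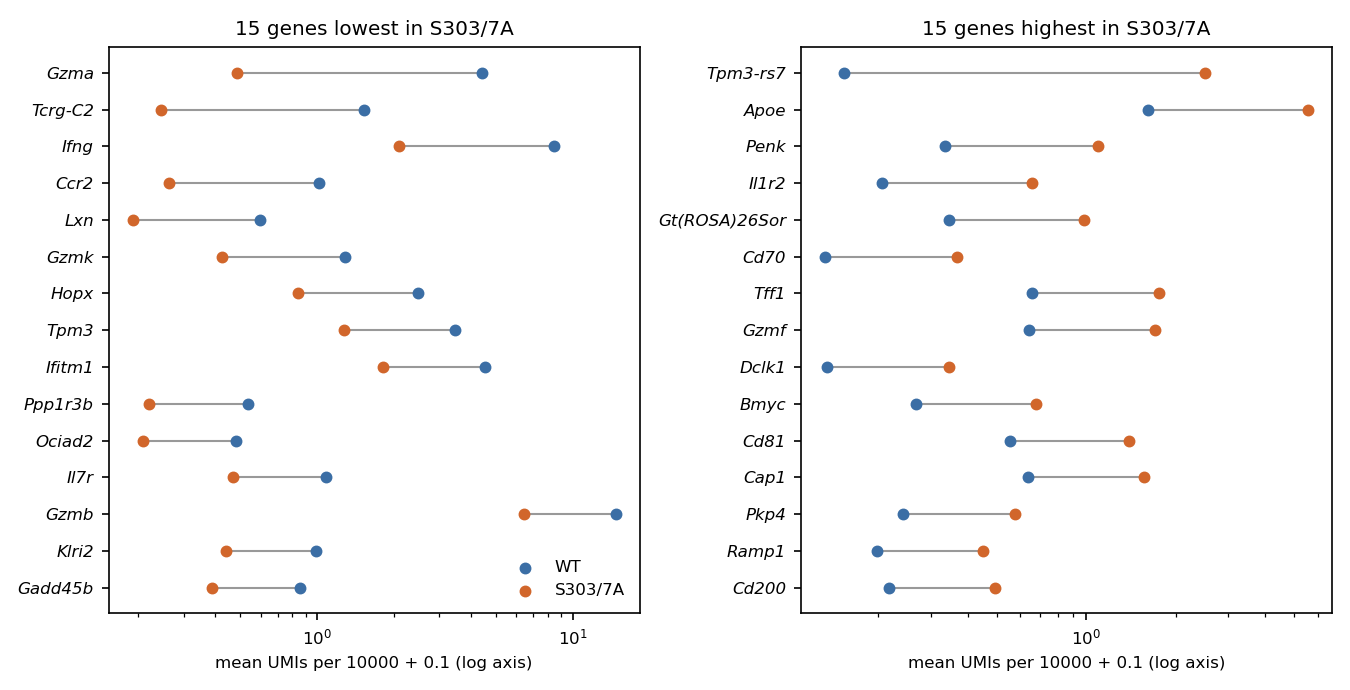
Mean level in C06 (CP10K plus 0.1, log axis) of the 15 genes with the lowest and the 15 with the highest log2 ratio, 1 point per library joined by a line. Gzma is at 4.33 CP10K in WT and 0.386 in the mutant, and Tpm3-rs7 at 0.0534 and 2.40.

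Of the 9 genes of the T cell receptor complex, 0 passed a log2 ratio of 0.5 in either direction, with a median of −0.12 and a range from −0.34 to 0.41. Cd3g was at 25.4 and 25.4 CP10K, Trac at 9.52 and 9.64 and Cd8a at 9.99 and 9.20. Of the 13 genes of receptor signalling 1 passed, Rgs1, which damps G protein-coupled receptor signals, at 5.73 and 10.5 CP10K (log2 ratio 0.87). Its ratios in C11, NK cells and Treg were 0.09, −0.43 and 0.35, and the differences between populations were not tested. The kinase Lck was at 5.38 and 5.64 CP10K and its partner Zap70 at 1.71 and 1.76, while the adaptor Lat was at 3.203 and 2.32 (−0.45).

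Inhibitory receptors also lay close to 0 on the log2 scale. Of 12 measured genes 1 was lower and 1 higher by 0.5, Cd244 (0.904 and 0.543 CP10K, −0.64) and Cd200r1 (0.325 and 0.516, 0.54), with a median of −0.13. Pdcd1 was at 4.72 and 5.44 CP10K (0.20) and Lag3 at 5.63 and 5.76 (0.03). The share of thinned cells with a Pdcd1 UMI was 53.7% (48.5 to 58.8%) in WT and 63.3% (58.6 to 67.8%) in the mutant, a ratio of 1.18 (1.05 to 1.33). Cells with both Pdcd1 and Lag3 made up 30.95% and 41.1%, a ratio of 1.33 (1.10 to 1.60). In cells thinned to 1000 UMIs the ratios were 1.15 (0.960 to 1.38) and 1.16 (0.813 to 1.65), with intervals that include 1. Before thinning, Pdcd1 was found in 72.6% and 92.5% of cells. In thinned macrophages Pdcd1 was found in 3.81% and 5.27%, and whether this was their own or free RNA was not tested. Havcr2, the gene of TIM-3, was at 0.720 and 0.652 CP10K and Ctla4 at 1.11 and 0.814 (−0.41). Tigit had 18 and 23 UMIs only. Of the 10 costimulatory receptors 1 passed, Tnfrsf4 (OX40), at 1.49 and 2.16 CP10K (0.51), and Tnfrsf9 (4-1BB) was at 2.90 and 3.29 (0.18). The 7 measured NK-type lectin receptors had a median of −0.14, with Klra7 alone past 0.5 (20 and 7 UMIs). Klrd1 was at 13.5 and 12.5 CP10K and Klrk1, the gene of the activating receptor NKG2D, at 8.98 and 8.14.

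Of 15 measured genes of the cytotoxic granule 3 were lower and 3 higher by 0.5, with a median of −0.03, beside 4.53% and 3.77% of all genes. Gzmb (chromosome 14, 56258838 to 56262260), the main apoptosis-inducing granzyme, was at 14.6 CP10K in WT and 6.33 in the mutant (−1.19), from 2906 and 2107 UMIs, a UMI ratio of 0.419 (0.396 to 0.443). Thinned cells with a Gzmb UMI made up 65.3% and 39.9% (76.5% and 53.1% before thinning), against 12.2% and 8.95% of macrophages. Gzmb was also lower in C11 (−0.68), NK cells (−0.78) and Treg (−0.58). Gzma (chromosome 13, 113093825 to 113100981), a tryptase of killer cells, was at 4.33 and 0.386 CP10K (−3.19), from 48 WT and 13 mutant cells. Gzmk, a granzyme of memory-like T cells, was at 1.18 and 0.325 CP10K (−1.59). On the other side stood Gzmd at 0.219 and 0.648 CP10K (1.23), Gzme at 0.264 and 0.657 (1.06) and Gzmf at 0.540 and 1.60 (1.41), neighbours of Gzmb in 1 granzyme cluster. Those 3 were found in at most 10.4% of cells (7.34% of thinned cells) and share 37.7%, 45.5% and 21.1% of their 3′ words with each other or Gzmg, so they are uncertain singly. The gap in depth was narrowed by comparing only the 229 WT and 257 mutant cells with 4000 to 8000 UMIs, whose medians were 5247 and 6100 UMIs. There Gzme was at −0.13 and Gzmf at 0.82. Perforin (Prf1) was at 1.99 and 2.59 CP10K (0.36) and the granule protein gene Nkg7 at 44.1 and 35.7 (−0.30).

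Gzma sat in few cells. In WT C06, 27 of 387 cells held 5 or more Gzma UMIs, and 2 of 441 did in the mutant. The 27 cells had Gzmb at 44.1 CP10K against 12.4 in the other 360, Gzmk at 3.97 against 0.975, the monocyte and effector chemokine receptor gene Ccr2 at 3.29 against 0.736, the migration factor gene Klf2 at 2.92 against 0.338 and the integrin genes Itgb7 at 2.16 against 0.422 and Itgae at 0.651 against 0.0098. Nrgn (0.130 against 2.02 CP10K), Ikzf2 (0.550 against 2.11), Tnfrsf4 (0.248 against 1.58) and Igfbp7 (0.0625 against 0.989) were lower in them. Cd8a (9.43 and 10.0 CP10K) and Pdcd1 (4.25 and 4.76) were alike. Without cells of 5 or more Gzma UMIs in either library, the ratio was −0.76 for Gzma and −0.96 for Gzmb. The cells were left out by Gzma itself, so the Gzma value follows from the selection. A cut on UMIs also falls unequally on libraries of different depth. This cut was chosen after the values were seen.

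Some cytokine and chemokine levels rested on single cells. Of 1480 Ifng UMIs in WT C06, 889 (60.1%) came from 2 cells, and those cells held 98.5% of the 517 Il2 UMIs. The first (3660 UMIs in all) had 460 UMIs of Ifng, 564 of the chemokine gene Ccl4, 359 of Ccl3, 89 of Il2 and 32 of Gzma, with 4 of Cd8a. The second (5277 UMIs) had 429 of Ifng, 420 of Il2, 18 of Il13, 9 of Il10 and 5 of Cd40lg, with 0 of Cd8a, Cd8b1 and Cd4 and 8 of Trac. The next cell by Ifng held 35 UMIs, and in the mutant the highest held 15. Ifng (chromosome 10, 118441046 to 118445892) was at 8.29 and 1.996 CP10K over all cells (−2.0), and at 2.96 and 1.92 CP10K without the top 2 cells of each library (−0.60), a UMI ratio of 0.625 (0.558 to 0.700). When the highest Scrublet scores, a doublet measure, were left out (3 WT and 2 mutant C06 cells), Ifng was at −0.55 and Il2 at −0.12. The 2 WT cells with most of the Il2 UMIs were thus among those left out, so this is not a separate check. The share of thinned cells with an Ifng UMI was 34.7% and 26.2%, a ratio of 0.755 (0.612 to 0.931), against 2.68% and 2.49% of macrophages and 53.5% and 55.3% of C06 cells before thinning. In cells thinned to 1000 UMIs the ratio was 0.778 (0.581 to 1.04), an interval that includes 1. The log2 ratio of Il2 went from −4.37 to −0.21 and that of Ccl3 from −0.42 to 0.14 when the top 2 cells of each library were left out.

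**Figure D4:**
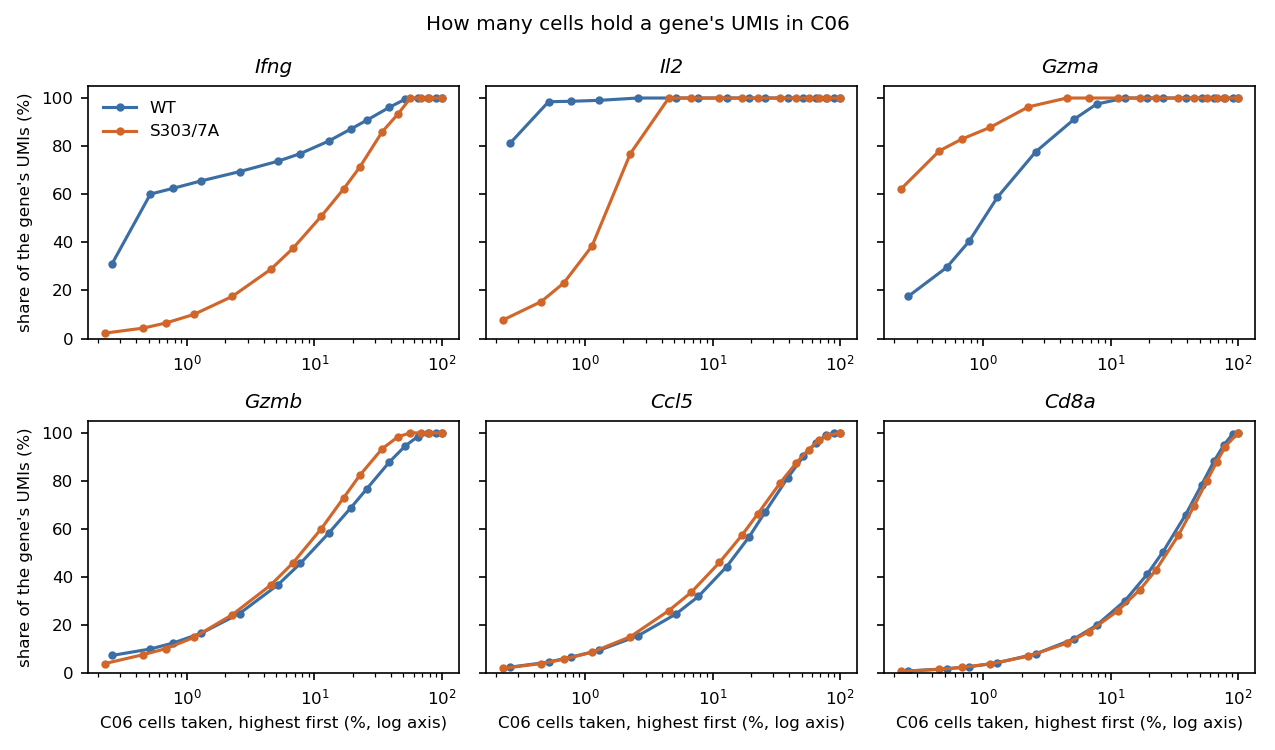
Cumulative share of a gene's C06 UMIs (percent) against the share of cells taken, highest first (percent, log axis), for 6 genes in each library. The WT curves of Ifng and Il2 start high because 2 cells hold 60.1% and 98.5% of the UMIs, and those of Cd8a, Ccl5 and Gzmb nearly overlap between libraries.

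Of the 12 measured cytokine genes 3 were lower and 4 higher by 0.5, and of the 7 chemokine genes 2 were lower and 3 higher. Of all genes 4.53% were lower and 3.77% higher. Ccl5, a chemokine of effector T cells, was spread over most cells and was at 72.2 and 34.7 CP10K (−1.05), with medians of 18 and 11 UMIs per cell. Its ratio was −0.32 in cells of 4000 to 8000 UMIs. Ccl5 was also lower in macrophages, at 17.6 and 7.08 CP10K, and slightly lower in C11 (−0.37), and the part of free RNA and depth in it was not tested. Ccl4 was at 21.4 and 13.3 CP10K (−0.68, or −0.48 without the top 2 cells), and the share of thinned cells with a UMI of it was 57.4% and 42.9%, against 23.8% and 16.3% of macrophages, which can express it. The genes of Xcl1, which attracts dendritic cells, at 1.44 and 2.47 CP10K (0.74), Ccl1, at 0.751 and 1.36 (0.78), and the opioid precursor Penk, at 0.234 and 0.994 (1.71), were higher. Penk was found in 6.19% of thinned mutant cells and 2.38% of WT cells, against 0.529% and 0 of NK cells, and its ratio in C11 was 2.39. In cells of 4000 to 8000 UMIs, Xcl1 was at 0.07, Ccl1 at 0.31 and Penk at 1.05. In the mutant, the 10 cells with the most UMIs of the gene in question held 50.6% of Xcl1, 67.3% of Ccl1 and 63.8% of Penk. Tnf was at 0.306 and 0.141 CP10K (44 and 46 UMIs), and Csf2 at 0.115 and 0.275 (19 and 91 UMIs).

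Among 16 measured homing and residency genes, which guide cells into and out of tissue, 7 were lower by 0.5 and 1 higher, with a median of −0.23, beside 4.53% and 3.77% of all genes. Ccr2 was at 0.914 and 0.164 CP10K (−1.94), and in macrophages, which express it, at 3.16 and 2.55. The collagen-binding integrin gene Itga1 was at 0.370 and 0.148 CP10K (−0.92). The exit receptor gene S1pr1 had 15 and 7 UMIs and Cxcr4 had 9 and 4. Cxcr6 was at 9.90 and 8.72 (−0.18). In cells of 4000 to 8000 UMIs the median of the list was 0.12, Ccr2 was at −1.08, and Cxcr3 (0.758 and 0.486 CP10K, −0.55), Cd69 (1.04 and 0.682, −0.55) and Itgb7 (0.543 and 0.328, −0.59) were at 0.38, 0.12 and 0.21.

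Among genes of naive and memory cells, Tcf7 and Lef1, transcription factors of naive and stem-like T cells, were at 0.180 and 0.114 CP10K and at 0.0983 and 0.117 CP10K in C06. 10 genes of this list were measured, 2 lower and 2 higher by 0.5, with a median of −0.24, which was 0.40 in cells of 4000 to 8000 UMIs. Il7r, the receptor of a survival cytokine, was at 0.978 and 0.370 CP10K (−1.20), and at −0.15 in cells of that depth, and in Treg at 5.08 and 2.47 CP10K. The migration factor gene Klf2 was at 0.517 and 0.354 CP10K in C06 and 3.56 and 2.27 in NK cells. Bach2, a repressor of effector genes, had 6 and 33 UMIs (0.65).

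Of 20 measured transcription factors of effector and exhausted cells, 1 was lower and 3 higher by 0.5, with a median of −0.08. The lower one was Hopx (chromosome 5, 77086988 to 77115121), at 2.38 and 0.744 CP10K (−1.55), found in 31.75% of thinned WT cells and 9.63% of thinned mutant cells (57.6% and 29.7% before thinning), a ratio of 0.303 (0.220 to 0.419). Hopx was lower in C11 (−2.13), NK cells (−1.54) and Treg (−1.71) too, and in macrophages, where thinned cells with a UMI made up 11.1% and 1.89%. It was at −1.03 in cells of 4000 to 8000 UMIs. Without cells that held a UMI of Trav4-4-dv10, Trav13-4-dv7 or Trav13-1 the ratio of Hopx was −1.96. The higher ones were Bhlhe40, a factor of tissue residency, at 1.58 and 2.51 CP10K (0.63), Nfatc1, at 0.489 and 0.766 (0.55), and Maf, at 0.118 and 0.219 (0.55). Tox, which maintains exhausted T cells, was at 2.43 and 2.64 CP10K (0.12), Tbx21 at 0.551 and 0.593 and Nr4a2 at 2.55 and 2.53. Ikzf2 (Helios) was at 2.003 and 1.47 CP10K (−0.42).

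**Figure D5:**
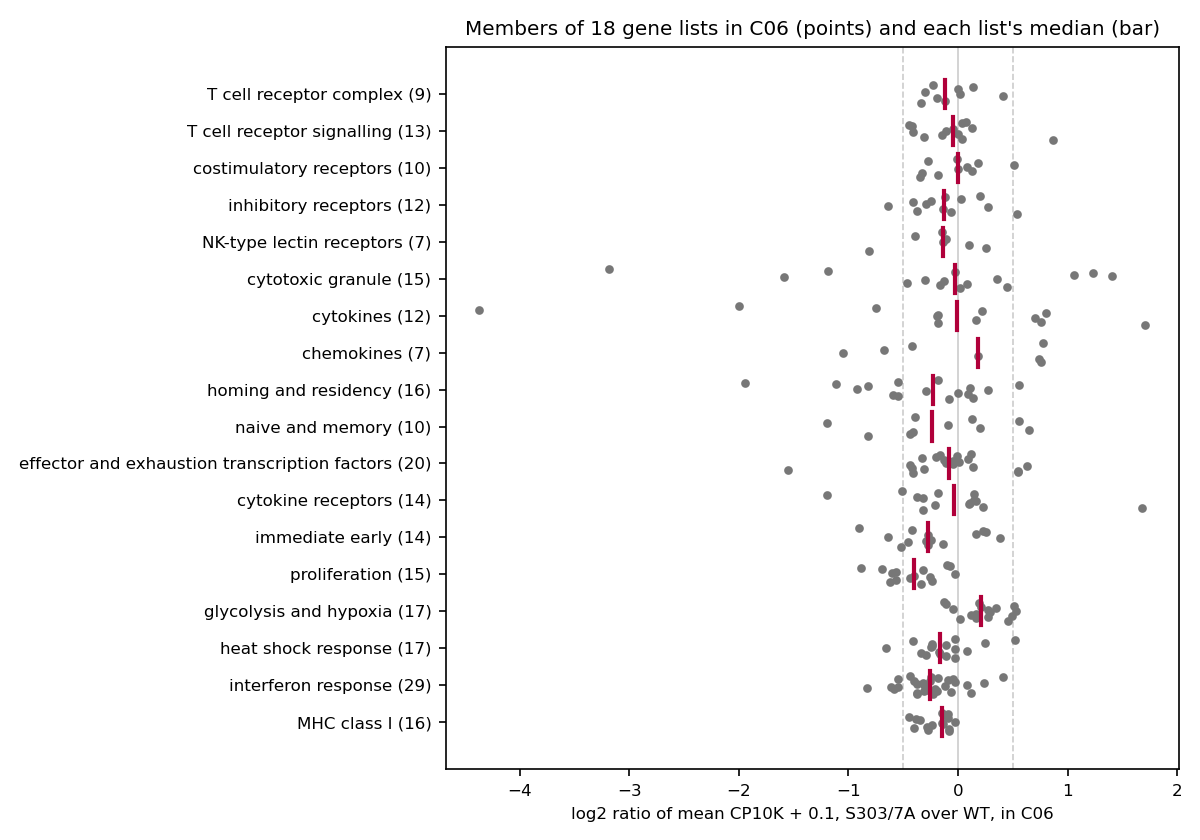
Log2 ratio, mutant (S303/7A) over WT, in C06 for each measured gene of the lists, 1 point per gene, with the median of each list marked. All 16 MHC class I genes lie between −0.45 and −0.03 and 25 of 29 interferon genes lie below 0, while 14 of 17 glycolysis genes lie at or above 0. Of all 6999 genes, 52.6% lie below 0.

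Of 14 measured cytokine receptors 2 were lower and 1 higher by 0.5. The higher one, Il1r2, a decoy receptor that binds interleukin 1 without signalling, was at 0.105 and 0.557 CP10K (1.68), and in macrophages at 0.922 and 0.476. Il2ra (0.224 and 0.127 CP10K, −0.51) and Il7r were lower, and Il2rb, at 6.72 and 5.90, and Il2rg, at 2.34 and 2.62, stayed within 0.2.

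Of 29 measured interferon-induced genes, 5 were lower by 0.5 and 0 higher, with a median of −0.26 against −0.02 for all genes. 25 of the 29 (86.2%) were below 0, against 52.6% of all 6999 genes. Gbp4, a guanylate-binding protein gene, was at 0.956 and 0.494 CP10K (−0.83), the GTPase gene Igtp at 1.48 and 0.934 (−0.61), the nucleic acid sensor gene Zbp1 at 3.24 and 2.14 (−0.58), and Isg15 at 5.77 and 4.24 (−0.44). Ifi27l2a was at 24.99 and 26.4 (0.08). The median of the same list was −0.08 in C11, −0.17 in NK cells and 0.00 in Treg, and −0.07 in C06 cells of 4000 to 8000 UMIs. All 16 genes of MHC class I presentation were below 0, and 0 of them passed −0.5, with a median of −0.15. B2m was at 68.5 and 62.5 CP10K (−0.13), H2-K1 at 28.3 and 25.5 (−0.15) and H2-T23, whose product is the ligand of NKG2A with a peptide, at 1.75 and 1.25 (−0.45).

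Of the HSF1 pathway, 17 genes were measured in C06, 14 of them below 0, 1 past −0.5 and 1 past 0.5, with a median of −0.16. Of all 6999 genes, 52.6% were below 0, 4.53% were past −0.5 and 3.77% past 0.5. The constitutive chaperone gene Hspa8 was at 20.7 and 15.6 CP10K (−0.41), Hsp90aa1 at 2.56 and 2.37 (−0.11), Hsp90ab1 at 14.9 and 12.6 (−0.24) and the co-chaperone gene Dnajb1 at 0.672 and 0.390 (−0.66). The inducible Hspa1a had 14 and 46 UMIs (0.52), and without the 1% of cells with the highest level its ratio was −0.04. The mitochondrial chaperone genes Hspd1, at 0.994 and 0.975 CP10K, and Hspe1, at 3.73 and 3.95, stayed within 0.1. The medians of this list in C11, NK cells and Treg were −0.16, −0.24 and −0.24, and that of C06 cells with 4000 to 8000 UMIs was −0.01. Immediate early genes, which tissue digestion can switch on, had a median of −0.27 over 14 measured genes, 3 of them past −0.5: Fos (0.884 and 0.427 CP10K, −0.90), Ier2 (1.89 and 1.17, −0.64) and Klf6 (2.86 and 1.97, −0.52). Junb, at 6.71 and 8.03 CP10K (0.26), went the other way. At 4000 to 8000 UMIs per cell the median of the list was 0.00.

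Of 17 measured glycolysis and hypoxia genes 2 were higher by 0.5 and 0 lower, and 3 were below 0, with a median of 0.21. Of all 6999 genes, 3.77% were higher by 0.5, 4.53% lower, and 52.6% below 0. Tpi1 was at 3.03 and 4.41 CP10K (0.53), Eno1 at 4.48 and 6.35 (0.49), Gapdh at 24.6 and 30.0 (0.29) and Ldha at 6.70 and 7.50 (0.16). The median was 0.20 in C11, 0.12 in NK cells and 0.36 in Treg, and 0.08 in C06 cells of 4000 to 8000 UMIs. Of 15 measured proliferation genes 6 were lower by 0.5 and 0 higher, and all 15 were below 0, with a median of −0.40, beside the same shares of all genes. Stmn1 was at 1.08 and 0.670 CP10K (−0.62), Ube2c at 0.450 and 0.197 (−0.89) and Mcm6, part of the replicative helicase, at 0.527 and 0.324 (−0.57), while Mki67 was at 0.166 and 0.148 (−0.10). In cells of 4000 to 8000 UMIs this median was −0.64, and in C11 it was −0.19.

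Of the genes furthest from 0 not yet described, Lxn, which encodes the protease inhibitor latexin, was at 0.499 and 0.0898 CP10K (−1.66) and was lower in mutant C11, NK cells and Treg too (−1.72, −1.14 and −1.63). Ifitm1, with 26.6% of its 3′ words in other genes, was at 4.45 and 1.71 CP10K (−1.33), and Klri2, a lectin receptor gene, at 0.887 and 0.338 (−1.17). Tff1, a secreted trefoil peptide gene, was at 0.557 and 1.65 CP10K (1.42), found in 7.67% and 17.0% of thinned cells and in 0 of the NK cells, and its ratio was 0.19 in C11 and 0.90 in C06 cells of 4000 to 8000 UMIs. Nrgn was at 1.89 and 4.05 CP10K (1.06), and at 0.36 in cells of that depth. Cd70, the ligand of CD27, had 6 and 84 UMIs (1.47), and Cd81, a tetraspanin gene, was at 0.454 and 1.29 CP10K (1.33). Tpm3, a tropomyosin gene, and the related sequence Tpm3-rs7 went apart in all 4 populations: in C06 Tpm3 was at 3.35 and 1.18 CP10K and Tpm3-rs7 at 0.0534 and 2.40, and 61.9% of the 3′ words of Tpm3-rs7 also occur in Tpm3, so these reads may come from either gene. Ly6c2, a surface gene shared by monocytes and memory CD8 T cells with 47.7% of its 3′ words in other genes, was at 16.1 and 7.95 CP10K (−1.01) and Plac8 at 27.6 and 18.1 (−0.61), and macrophage cells showed the same direction, with Ly6c2 at 12.6 and 2.18. The part of free RNA in these was not tested.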

How the data were processed

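Single-cell 3′ RNA libraries of 1 WT and 1 S303/7A sample were analysed. Per the submitters' processing notes, Cell Ranger, Seurat 3.0 and the builds mm10 and GRCm38 were used, with no record of how cells or genes were filtered in the labels. Per the file headers and values, the authors deposited the natural log of 1 plus UMIs scaled to 100000 per cell, with the count of UMIs and of genes and the percent of mitochondrial UMIs for each cell, and their cluster and cell class. Whole UMIs were recovered from 99.94% of nonzero values (tolerance 0.1 UMI). C06, C11, NK, Treg and macrophage (MF) cells are the authors' classes.

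A gene was compared between genotypes when found in at least 10% of C06 cells of 1 library, and counted past a log2 ratio of 0.5. Between populations it was counted past 1 in both libraries. List members needed 0.1 CP10K in 1 library. No test was planned or run, since each genotype has 1 library. Shares have exact Clopper-Pearson intervals, UMI ratios exact conditional binomial intervals and ratios of shares log-normal (Katz) intervals, each at 95% and for counting error only. The limit given for a count of 0 is 3 counts of the total. Scrublet in scanpy 1.11.5 marked 0 C06 cells with its automatic threshold, which marked 0.842% of all WT cells and 0.0833% of all mutant cells and so had not worked for the latter. The 361 and 207 highest-scoring cells, 3 and 2 of them in C06, were left out as an alternative. Calculations used Python 3.11.15, numpy 2.4.6, scipy 1.17.1, pandas 2.3.3 and matplotlib 3.10.9, and were tested on simulated data. Positions and sequences are from GENCODE M21, where 403 of 405 gene names matched.

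Genes named are the 6 markers, members of 29 lists, the 15 highest and 15 lowest ratios between genotypes, the 12 highest and 12 lowest against each population, the 15 highest over all 3, and the 3 most frequent Trbv segments per library. Mitochondrial, ribosomal and unnamed gene models were left out of rankings. Values of some list members are not reported here. Genes of the subsets, the Trav segments and the 2 cells with most Ifng were chosen after their values were seen. The members and lists were chosen with earlier results of these data known.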

Additional observations from a re-analysis of the deposited data

Results flagged for a closer look

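A few genes lay past a log2 ratio of 0.5 (mutant over WT) in opposite directions in C06 and in Treg. There is 1 library per genotype, and the difference between the 2 populations was not tested. The chemokine gene Ccl5 was at −1.05 in C06 and 0.53 in Treg. Cxcl10, a chemokine gene induced by interferon, was at 0.76 and −0.51. Tnfrsf4, the gene of the costimulatory receptor OX40, was at 0.51 in C06 and −0.65 in Treg. The macrophage marker Ms4a7 was at 0.54 and −0.61, and the B cell gene Ighm at −0.64 and 0.61.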

How the results depend on the processing

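Without replicates, an alternative can only show whether a value moves. Over all alternatives, 36 counts of genes stayed within 1.5 times and 18 did not, and 199 of 234 list medians stayed within 0.1. 19 of those medians changed sign, 6 of them from at least 0.1 away from 0. 187 of 4108 values of named genes changed sign, 7 of them from past 0.5. Apart from those 7, 319 values moved by more than the half-width, in log2, of the main interval of their UMI ratio. Where that interval was not finite, a move of more than 1 was counted. This rule is a yardstick and not the counting error of the move itself. The cause was not tested where none is named. No paired analysis was possible because each genotype has 1 library and no result comes from a test.

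With a pseudocount of 1, 23 genes were lower and 24 higher in the mutant, medians were 0.04 for chemokines, −0.06 for naive and memory, −0.14 for immediate early, −0.09 for proliferation and −0.15 for interferon genes, and 1 and 46 genes were higher and lower in C06 against C11, 24 and 27 against NK and 23 and 53 against Treg. With a pseudocount of 0.01, 336 were lower and 396 higher, and proliferation was at −0.64. Genes in 5% of cells gave 287 higher, and no filter on the share of cells gave 317 lower. Summed UMIs gave medians of 0.29 for cytokines and 0.03 for naive and memory genes, both of opposite sign to before. Thinned cells gave 108 genes higher, medians of −0.16 for receptor signalling and −0.58 for naive and memory genes, 13 and 150 genes against C11, and 76 higher than in NK, with 2398 genes left between genotypes. The cytokine median was 0.21 in cells with CD8 chains and no Cd4, without the highest Scrublet scores, and without the 2 WT cells with the most Ifng UMIs. Those 2 cells were also among the highest Scrublet scores, so these settings overlap.

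Without cells of 2 or more proliferation UMIs, 347 genes were lower and 438 higher, and medians were −0.19 for receptor signalling, 0.03 for inhibitory receptors, 0.09 for the granule, −0.14 for cytokines, −0.18 for chemokines and −0.47 for naive and memory genes, with Birc5 at 0.12 and Ccl1 at −0.18. The medians of inhibitory receptors, the granule and chemokines changed sign, as did 31 of 316 named genes, of which Birc5 and Ccl1 had been past 0.5. Without the shallowest 10%, naive and memory genes were at −0.11, interferon genes at −0.40 and MHC class I at −0.25.

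The alternatives that follow were chosen after seeing the data. In cells of 4000 to 8000 UMIs, medians were 0.41 for cytokines, 0.07 for chemokines, 0.09 for cytokine receptors, 0.00 for immediate early, −0.64 for proliferation, 0.08 for glycolysis, −0.01 for heat shock and −0.07 for interferon genes. The 6 medians that changed sign were those of receptor signalling (0.03), lectin receptors (0.04), homing (0.12), naive and memory (0.40), cytokine and cytokine receptor genes. 61 of 316 named genes changed sign, of which Cd69 (0.12), Cxcr3 (0.38), Gzme (−0.13) and Itgb7 (0.21) had been past 0.5. Median depth in this window still differed, at 5247 and 6100 UMIs. Of the 195 lower and 191 higher genes, 104 and 118 were also called there. Without the 1% highest cells per gene, the granule was at 0.10, cytokines at 0.24 and 10 named genes changed sign, of which Hspa1a (−0.04) had been past 0.5. At 1000 UMIs per cell, the ratios of shares were 0.875 for Ccl5, 0.884 for Cd8b1, 0.883 for Cd8a with Cd8b1 and 1.10 for Trac.

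Leaving out cells with 2 or more macrophage, B cell or tumor and stroma marker UMIs kept 90 WT and 7 mutant cells, under a minimum of 50 set after seeing the data, and was not run. Depth limits genes with few UMIs, such as Tigit, Tnf, Hspa1a and the V segments.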
